A study of Mus musculus with 2 samples.

Results

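The Cd177/Ceacam10 state is a set of 330 alveolar type 2 (AT2) cells from mouse lung organoids treated with IL-1β, in which a score made of Cd177, Ceacam10 and Cxcl3 was the highest of 4 state scores. These cells are 330 of the 1650 AT2 base cells of the IL-1β library (20%, exact Clopper-Pearson 95% interval 18.1 to 22.0%), 330 of its 2380 epithelial cells (13.9%), and 330 of 5167 cell barcodes in the series. The members were chosen by measured values. A base cell had more UMIs (unique molecular identifiers, each 1 captured transcript) of Epcam, Cdh1, Cldn3, Cldn7 and Krt18 together than of the stromal genes Col1a2, Col3a1, Sparc and Dcn, no more than 2 UMIs of the AT1 genes Hopx, Rtkn2 and Akap5, and at least 1% of its UMIs from Sftpc. It also lay below the top 15% of a score of Krt8, Krt19, Cldn4, Sprr1a and Sfn. Over the base cells, 4 scores of 3 genes each were standardized to z, and the cell took the state with the highest z. The other states were led by Cxcl10 and Cd14 (439 cells), Retnla and Gstm1 (406 cells) and Fgl1 (475 cells).

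The study asked how IL-1β changes AT2 cells in culture. AT2 cells carrying a tamoxifen-induced lineage label were sorted from SPC-CreERT2;R26R-tdTomato mice on the C57BL/6 strain, where Cre is driven by the promoter of the surfactant protein C gene, and were grown with lung stromal cells, for 2 weeks by the series' design text and for longer by the study's figure legend. Control organoids received PBS and the others IL-1β, and each condition gave 1 droplet-based 3′ library (control 2101 barcodes and 33965848 UMIs, IL-1β 3066 barcodes and 41220175 UMIs). Stromal cells of the culture are in both libraries, and neither library has a replicate. The libraries share 11 barcodes, 4 of them in the state, and leaving these cells out is among the alternatives. There is therefore no test in what follows: levels carry exact Poisson 95% intervals and ratios exact conditional 95% intervals, and all intervals cover counting error only. Treatment and library cannot be told apart in any comparison with control.

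AT2 cells secrete surfactant and act as progenitors of the thin AT1 cells that line the alveolus. IL-1β acts through the receptor Il1r1 and NF-κB, and in epithelia it induces chemokines and acute-phase proteins. CD177 is a GPI-anchored glycoprotein of the Ly6/uPAR family, best known from the surface of neutrophils. Ceacam10 belongs to the carcinoembryonic antigen family of immunoglobulin-like glycoproteins, and Cxcl3 is a chemokine that attracts neutrophils through Cxcr2.

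Cd177 and Ceacam10 are neighbors. In the GENCODE annotation of GRCm38, Cd177 lies at chr7:24743983-24760311 on the minus strand and Ceacam10 at chr7:24777206-24784657 on the plus strand. Their annotated starts are 16.9 kb apart and point away from each other, with 0 protein-coding starts between them. Cxcl3 lies at chr5:90786103-90789600 on the plus strand, inside the CXC chemokine cluster. The 250 bases before the RefSeq start of each gene (GRCm38.p6, written 5′ to 3′ along the gene's strand) are shown because they are the sequence from which each score gene starts, and capitals mark matches to the motifs searched. The windows are chr7:24760312-24760561 (minus) for Cd177, chr7:24776954-24777203 (plus) for Ceacam10, which has another RefSeq start slightly upstream that is not shown, and chr5:90785851-90786100 (plus) for Cxcl3.
Cd177: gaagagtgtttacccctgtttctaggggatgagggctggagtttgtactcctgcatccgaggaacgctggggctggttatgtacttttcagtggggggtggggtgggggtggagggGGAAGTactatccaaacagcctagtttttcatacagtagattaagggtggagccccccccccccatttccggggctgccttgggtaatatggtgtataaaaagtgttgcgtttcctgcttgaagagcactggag
Ceacam10: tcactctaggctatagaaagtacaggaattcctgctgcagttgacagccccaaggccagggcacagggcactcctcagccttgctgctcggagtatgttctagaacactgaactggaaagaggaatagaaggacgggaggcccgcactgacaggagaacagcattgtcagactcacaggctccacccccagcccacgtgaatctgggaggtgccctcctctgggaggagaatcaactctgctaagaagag
Cxcl3: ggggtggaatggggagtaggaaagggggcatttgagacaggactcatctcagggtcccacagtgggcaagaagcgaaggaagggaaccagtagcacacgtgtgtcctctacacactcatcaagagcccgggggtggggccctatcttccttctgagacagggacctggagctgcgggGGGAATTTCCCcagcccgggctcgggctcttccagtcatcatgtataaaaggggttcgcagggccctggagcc

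The motifs, searched on both strands, were the κB consensus, the C/EBP letters TTGCNNAA, the STAT letters TTCNNNGAA, the AP-1 letters TGACTCA and the ETS letters GGAAGT. The Cxcl3 window held the κB consensus on both strands, as overlapping matches from 73 to 63 bases before the start. Of all 32851 promoter windows of this length, 3.90% held that consensus. The Cd177 window held the ETS letters from 134 to 129 bases before the start, and 19.7% of all windows did. The Ceacam10 window held none of the 5 motifs, and C/EBP, STAT and AP-1 letters, found in 9.56%, 7.02% and 4.46% of all windows, were in none of the windows printed here. A match is a description of letters and not of a bound site.

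The score genes chose these cells, so their levels describe the rule. Cd177 stood at 259 UMIs per 1000000 UMIs (CPM) summed over the state (95% interval 244 to 275). It was 6.17 CPM in the Cxcl10/Cd14 state, 12.6 CPM in the Retnla/Gstm1 state, 12 CPM in the Fgl1 state and 8.16 CPM in the 743 control AT2 base cells. Ceacam10 stood at 113 CPM (103 to 123), against 8.16, 10.7 and 7.87 CPM in the other states in the same order. In control base cells Ceacam10 had 2 UMIs in all, which is 0.181 CPM with an upper limit of 0.655 CPM. Cxcl3 stood at 113 CPM (104 to 124), against 20.5, 17.0 and 12 CPM in the other states and 12.5 CPM in control base cells. Of these genes, Ceacam10 was the one almost without UMIs in control AT2 cells, while the control levels of Cd177 and Cxcl3 lay within the range of the other IL-1β states. The control level of Cd177 came from few cells: 90 UMIs in 12 of 743 cells, of which 41 were in 1 cell and 22 in another.

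**Figure D1:**
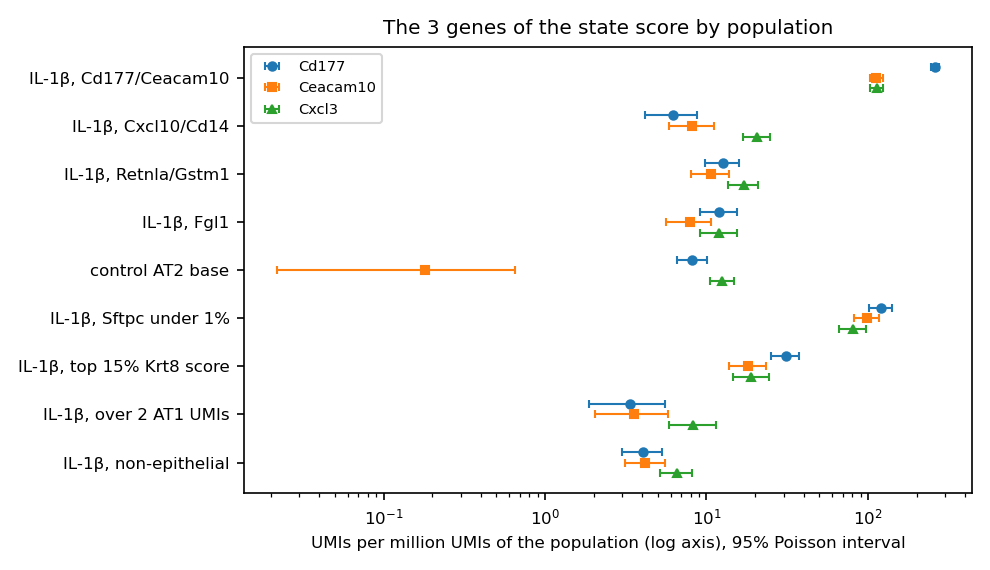
Levels of Cd177, Ceacam10 and Cxcl3 (CPM, log axis) in 9 cell populations, with points at the level and bars for exact Poisson 95% intervals. The state has the highest level of each gene, the cells with Sftpc under 1% of UMIs come next with an overlapping interval for Ceacam10, and Ceacam10 in control AT2 base cells rests on 2 UMIs.

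Within the state the score genes were uneven between cells. A UMI of Cd177 was found in 59.1% of members (53.6 to 64.4%), of Ceacam10 in 39.7% and of Cxcl3 in 46.1%. In the other base cells these shares were 7.88%, 6.06% and 12.9%. Non-epithelial cells of the same library were taken as a background. There a Cd177 UMI was found in 5.54% of 686 cells (3.95 to 7.52%), at a median depth of 12220 UMIs against 12811.5 UMIs in the state. Whether those UMIs are free RNA or come from cells that express the gene was not tested. A list of 12 neutrophil genes summed to 82.1 CPM in these non-epithelial cells, of which S100a8 made 48.7 CPM. The neutrophil genes S100a9 and Ly6g and the leukocyte gene Ptprc had no UMI there. The interval of the Cd177 share in the other base cells (6.48 to 9.47%), at a median of 11202.5 UMIs, overlapped that background. So did that of Ceacam10 (4.83 to 7.49%), which had a UMI in 3.94% of the non-epithelial cells (2.61 to 5.68%). By level both genes lay higher in the other base cells than in non-epithelial cells, with Cd177 at 10.3 CPM (8.75 to 12.02) against 4.03 CPM (2.99 to 5.31) and Ceacam10 at 8.92 CPM (7.49 to 10.5) against 4.19 CPM (3.13 to 5.50). The Cxcl3 share in the other base cells (11.1 to 14.8%) lay above its share of 4.81% in non-epithelial cells (3.33 to 6.69%). When every cell was thinned to 4500 UMIs the shares in the state were 39.1%, 27.0% and 27.9%. Counts per cell were skewed, with a median of 1 Cd177 UMI, a maximum of 35, and 61.0% of all Cd177 UMIs of the state in the 10% of its cells with the most.

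The edge of the state is soft. Of the 330 members, 35 held UMIs of all 3 genes, 116 of 2 genes, 141 of 1 gene and 38 of none. The 38 cells without a UMI entered because a cell with no UMI of the score scores a z of -0.57 here, whereas it scores -1.73, -1.11 and -2.18 for the other states, so a cell low in everything falls into the state. By the same means and SDs, 320 of 743 control base cells (43.1%) would have been placed in the state, 265 of them with no UMI of the 3 genes, so the share of cells in the state was not compared between conditions. UMIs of at least 2 of the 3 genes were found in 195 of 1650 IL-1β base cells (11.8%) and in 3 of 743 control base cells (0.404%). The next score was less than 0.5 z away in 137 members (41.5%), and 222 other cells lay as near on the other side. Members inside that margin had 69.3 CPM of Cd177, the cells just outside had 27.6 CPM, and members beyond the margin had 384 CPM. For Ceacam10 the same levels were 55.9, 23.4 and 149.8 CPM, and for Cxcl3 62.9, 38.3 and 146 CPM.

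AT2 markers that the rule did not use were read beside the label. Of 17 AT2 genes measured, 0 were higher or lower in the state than in the other base cells at 1.5-fold, where 0.491% of all genes were higher and 2.34% lower, so a count of 0 is near the background. All base cells passed the same rule, so that count cannot test the label. The 17 genes summed to 98403 CPM in the state and 88453 CPM in the other base cells. The sum was 29042 CPM in IL-1β epithelial cells with more than 2 AT1 UMIs and 9411 CPM in IL-1β non-epithelial cells. Sftpb stood at 9100 CPM in the state and between 8015 and 9330 CPM in the other states. Lamp3, a lysosomal membrane protein of lamellar bodies, stood at 970 CPM against 827 to 901 CPM, and Nkx2-1, the lung lineage transcription factor, at 248 CPM against 255 to 299 CPM. Given that Cd177 is known from neutrophils, markers of that cell type were checked. Among 12 neutrophil genes 6 were at 0 in the state, the sum of all was 5.77 CPM in the state and 8.34 CPM in the other base cells, and the most abundant was S100a8 at 3.46 CPM. S100a9 and Ly6g were at 0, but also in the other base cells and in IL-1β non-epithelial cells. These zeros therefore cannot tell the state from other cells. Of 12 macrophage and leukocyte genes 10 were at 0, Ptprc, Tyrobp and Csf1r among them, and Cd68 made nearly all of the 32.8 CPM, against 44.3 CPM in the other base cells. Over 12 stromal genes, none of them at 0, the sum was 496 CPM in the state, 560 CPM in the other base cells, 478 CPM in control base cells and 14749 CPM in IL-1β non-epithelial cells. The most abundant was Sparc, at 172, 205 and 252 CPM in the state, the other base cells and control base cells. Dcn stood at 126, 134 and 5.89 CPM in the same order, so single stromal genes went different ways against control. Sparc and Dcn are among the genes by which base cells were chosen.

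The 2 neighboring genes tended to be in the same cells. In the 1650 base cells, a Cd177 UMI was found in 48.3% of the 211 cells with a Ceacam10 UMI (41.4 to 55.3%) and in 13.7% of the 1439 cells without one (11.95 to 15.6%). Thinned to 4500 UMIs, these shares were 34.1% and 8.70%. Cxcl3 went less closely with either: a Cd177 UMI was found in 30.7% of cells with a Cxcl3 UMI and 15.1% of cells without, and a Ceacam10 UMI in 21.1% and 10.8%. Cells with a Ceacam10 UMI were deeper, with a median of 13338 UMIs against 11217. A gap was also seen in the 730 IL-1β epithelial cells outside the base, which the rule did not score. There a Cd177 UMI was found in 21 of 55 cells with a Ceacam10 UMI (38.2%, 25.4 to 52.3%) and in 49 of 675 without (7.26%, 5.42 to 9.48%), and thinned in 38.5% and 4.12%. These cells pool populations with different levels of both genes. Within the cells with Sftpc under 1% the shares were 12 of 19 (63.2%, 38.4 to 83.7%) and 12 of 78 (15.4%, 8.21 to 25.3%). In the top 15% of the Krt8 score they were 8 of 25 (32%, 14.9 to 53.5%) and 24 of 267 (8.99%, 5.84 to 13.1%). With over 2 AT1 UMIs they were 1 of 11 and 13 of 330, with overlapping intervals (0.230 to 41.3% and 2.11 to 6.64%). Across the 1650 base cells the highest Spearman correlation of Cd177 with any gene was with Ceacam10, and the reverse (rho = 0.31). The closest gene to Cxcl3 was Cxcl5 (rho = 0.23). These coefficients are descriptions over cells of 1 library, which share depth and may share free RNA.

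**Figure D2:**
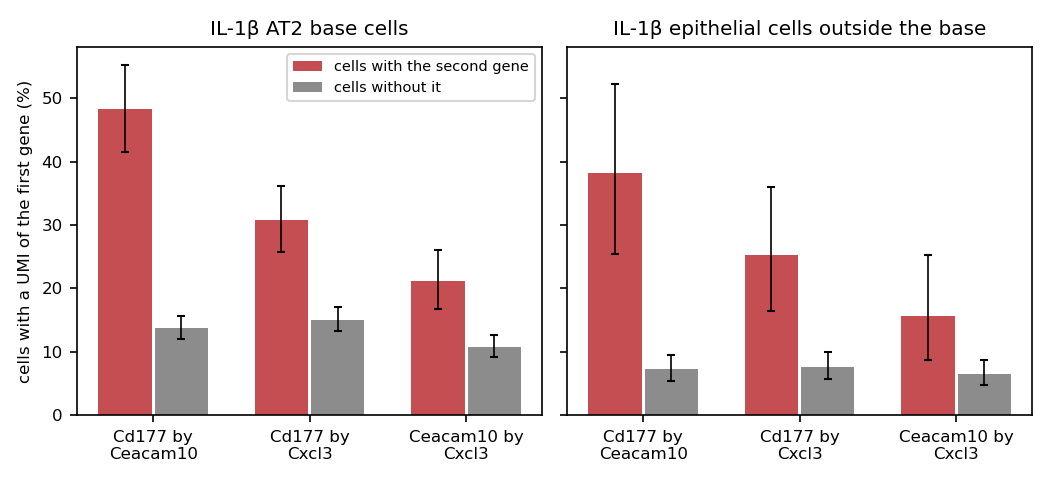
Percent of cells with a UMI of a first gene, in cells with and without a UMI of a second gene, with exact Clopper-Pearson 95% intervals, in the 1650 base cells and in the 730 IL-1β epithelial cells outside them. The pair Cd177 and Ceacam10 shows the widest gap in both panels, 48.3% against 13.7% and 38.2% against 7.26%, the latter over pooled populations with different levels of both genes.

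Each score gene was also read in cells that it did not help to choose. With Cd177 left out of the score, the 326 cells chosen had 135 CPM of Cd177 against 45.9 CPM in the rest of the base (ratio 2.94, 2.63 to 3.29), and 73.9% of them were also in the state. With Ceacam10 left out, the ratio of Ceacam10 was 2.46 (2.09 to 2.89). With Cxcl3 left out, the ratio of Cxcl3 was 1.35 (1.14 to 1.59). Cxcl3 was thus the score gene least tied to the others. The cells were also only partly alike in the rest of their transcriptome: among the 15 nearest neighbors of a member over 1000 genes outside the rule, 31.6% were members, against 20.2% for the other base cells and 20% of the base. Thinned to 4500 UMIs these shares were 23.7% and 19.6%. The matching shares for the Cxcl10/Cd14, Retnla/Gstm1 and Fgl1 states were 40.3%, 34.6% and 44.5% (34.1%, 28.3% and 38.2% thinned), beside their shares of 26.6%, 24.6% and 28.8% of the base.

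Few genes set the state apart from the other 1320 base cells. A gene was called at a ratio of at least 1.5 in either direction with its interval on that side of 1, among genes with at least 100 UMIs and outside the rule. Of 9174 genes, 45 were higher in the state (0.491%) and 215 lower (2.34%). This contrast is the one that defined the members, so these are descriptions. The median log2 ratio over all these genes was -0.07. Against each of the other 3 states at once, 6 genes were higher (0.0654%), which were Ccl25, Fbln2, Mrps22, Phgr1, Plxnd1 and St6galnac3, and 28 were lower (0.305%). Phgr1 and Fbln2 rest on a single cell each, without which their ratios over the other base cells were 0.801 and 0.712.

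Of the 25 genes highest by the lower limit of the ratio, 16 passed 1.5-fold, 22 were highest in this state of the 4, 17 had an interval above 1 against each of the other 3 states, and 19 were above control. Dmkn, which encodes the secreted epithelial protein dermokine, stood at 1100 CPM in the state, against 509 in the Cxcl10/Cd14, 686 in the Retnla/Gstm1 and 761 CPM in the Fgl1 state and 83.8 CPM in control. Its ratio over the other base cells was 1.68 (1.63 to 1.74). Cxcl5, a neutrophil chemoattractant, stood at 453 CPM, against 484, 181 and 94.05 CPM in the other states and 60.6 CPM in control. Its ratio of 1.80 (1.70 to 1.90) over the pooled other cells therefore hides that it was higher in the Cxcl10/Cd14 state (state over that state 0.936, 0.882 to 0.994). Lyz1, a lysozyme, stood at 316 CPM against 61.1, 201 and 239 CPM and 223 CPM in control (ratio 1.89, 1.77 to 2.02). Lyz1 and Lyz2 have near-identical sequences, so reads could be split between them and both values are uncertain. Lyz2 stood at 39560 CPM in the state and at 28955, 40527 and 45898 CPM in the other states.

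The next genes are given in no group. Cfb, complement factor B of the alternative pathway, stood at 41.3 CPM against 30.0, 17.2 and 23.2 CPM in the other states and 2.27 CPM in control (ratio 1.77, 1.47 to 2.12). Pf4, a CXC chemokine known from platelets, stood at 92.8 CPM against 53.3 CPM in the other base cells and 20.6 CPM in control (ratio 1.74, 1.54 to 1.96). Ncf4, a subunit of the phagocyte NADPH oxidase, stood at 10.6 CPM in the state and had 0 UMIs in control. The lower limit of its ratio over control was 30.5. Lcn2, the siderophore-binding lipocalin, stood at 23322 CPM against 19989, 17513 and 16585 CPM and 3564 CPM in control. Sftpa1, a surfactant collectin that binds microbes, stood at 16210 CPM against 12638, 11964 and 12529 CPM and 8492 CPM in control. Chil1, a chitinase-like protein, stood at 12964 CPM against 10477 CPM in the other base cells and 3131 CPM in control. Lcn2, Sftpa1 and Chil1 had ratios of 1.29, 1.31 and 1.24 and did not pass 1.5-fold, but their intervals are narrow because they are abundant. Cxcl15, the lung chemokine lungkine, and Fabp5, a fatty acid-binding protein, had ratios of 1.27 and 1.26 over the other base cells, yet both lay below control (0.855 and 0.789 of it). Fabp5 stood at 3842 CPM in the state and at 4077 CPM in the Cxcl10/Cd14 state, above it (ratio 0.942, 0.923 to 0.962).

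**Figure D3:**
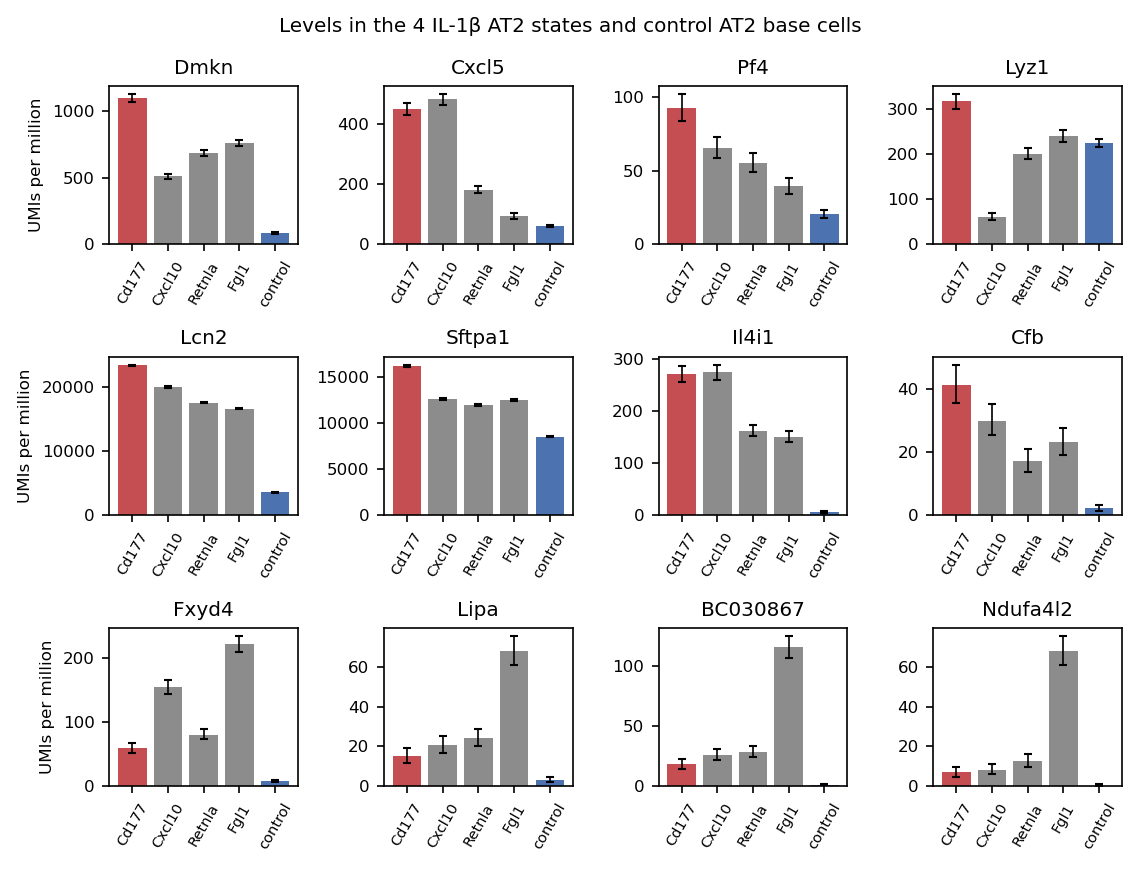
Levels of 12 genes (CPM) in the Cd177/Ceacam10 state, in the other 3 IL-1β AT2 states, each labeled by its first gene, and in control AT2 base cells, with exact Poisson 95% intervals. Dmkn, Pf4, Lyz1, Lcn2, Sftpa1 and Cfb are highest in the Cd177/Ceacam10 state, Cxcl5 is highest in the Cxcl10/Cd14 state, Il4i1 has overlapping intervals in these states, and the 4 genes of the bottom row are highest in the Fgl1 state.

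Among the others of the 25, Cd38, an NAD glycohydrolase, had a ratio of 1.45 and Cd55, a complement decay factor, 1.37. Il4i1, a secreted amino acid oxidase, had a ratio of 1.39 over the other base cells and was 41.0-fold control (32.4 to 52.7). Cthrc1, Ivl, Plxnd1, Smarcd3, Sec24d, St6galnac3 and Reep4 passed 1.5-fold with ratios from 1.52 to 1.93, and Ogfrl1 did not (1.40). Against single states, the interval of Smarcd3 held 1 over the Cxcl10/Cd14 state (1.11, 0.879 to 1.40). Over the Retnla/Gstm1 state those of Ivl (1.37, 0.995 to 1.89) and Ogfrl1 (1.11, 0.935 to 1.31) did. Phgr1 and Fbln2 passed 1.5-fold through single cells. The cell with most UMIs held 26.1% of all Phgr1 UMIs of the base and 24.4% of those of Fbln2, and without that cell the ratios were 0.801 and 0.712. Without each gene's top cell, 13 of the 25 still passed 1.5-fold. At 2-fold, 3 genes outside the rule were higher in the state, Phgr1, Fbln2 and Ncf4.

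The 15 genes lowest by the upper limit of the ratio all passed 1.5-fold, 13 of them had their lowest level of the 4 states here, 6 had an interval below 1 against each of the other 3 states, and 9 were highest in the Fgl1 state. Fxyd4, a regulator of the sodium pump, stood at 59.1 CPM, against 155, 80.8 and 222 CPM in the Cxcl10/Cd14, Retnla/Gstm1 and Fgl1 states (ratio 0.389 over the pooled cells) and 7.43 CPM in control. Lipa, lysosomal acid lipase, stood at 15.2 CPM against 20.7, 24.2 and 68.1 CPM (ratio 0.405). Ndufa4l2, a hypoxia-inducible mitochondrial protein, stood at 6.92 CPM against 8.35, 12.6 and 68.1 CPM (ratio 0.234). BC030867 stood at 18.5 CPM against 26.1, 29.0 and 116 CPM (ratio 0.325). Most of the gap for Lipa, Ndufa4l2 and BC030867 came from the Fgl1 cells. Susd2, Sstr2, a somatostatin receptor, and Pon1, a paraoxonase, had ratios of 0.285, 0.239 and 0.212.

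The airway secretory gene Scgb1a1 stood at 6.69 CPM in the state, against 20.5, 18.7 and 24.2 CPM in the other states and 98.3 CPM in control. A UMI of it was about as frequent in members (8.48%) as in the other base cells (8.71%), against 35.7% of control base cells. The gap to the other base cells thus lay in UMIs per cell and not in the share of cells. Several other low genes rest on single cells outside the state. One cell held 83.7% of the Bpifa1 UMIs of the base, and one 47.3% of those of Scgb3a1, both secreted products of airway epithelium, and like cells held 86.4% of Klk10, 77.7% of Ltf, 63.2% of Ccl5 and 62.9% of Rsad2. Without the top cell the ratios were 0.147 for Bpifa1, 0.238 for Scgb3a1, 0.283 for Ltf, 0.129 for Ccl5 and 0.295 for Rsad2, and the 15 genes still passed 1.5-fold. Klk10, Ltf, Ccl5 and Rsad2 were then left with under 100 UMIs, fewer than a call requires. The state had 0 UMIs of Klk10. When the 5% of base cells with the most UMIs were left out, Ltf and Scgb3a1 turned, with ratios of 2.95 and 1.21.

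**Figure D4:**
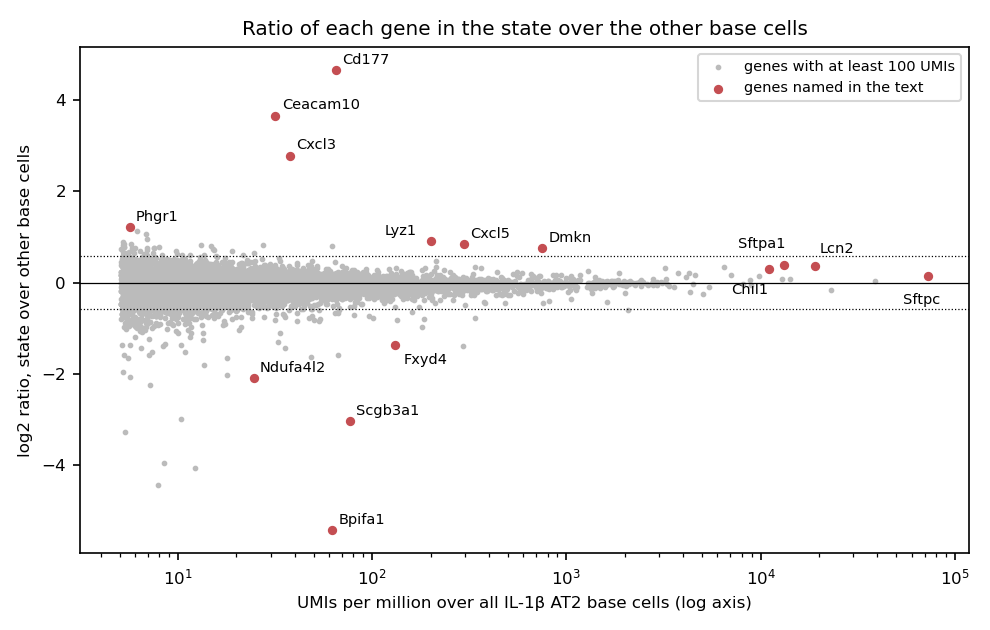
Log2 ratio of each gene with at least 100 UMIs in the state over the other base cells, against its level over all 1650 base cells (log axis), with dotted lines at 1.5-fold. The score genes stand alone at the top and the abundant genes Sftpa1, Lcn2 and Chil1 lie just above 0, while genes with no UMI in the state are not drawn.

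Lists of genes by function showed mostly levels near those of the other base cells. Over all genes 0.491% were higher and 2.34% lower, the median log2 ratio was -0.07 and the middle 50% lay between -0.19 and 0.05. A count of 0 called is near that background for lists of this size. The medians were 0.04 for the AT2 genes, -0.03 for sterol and fatty acid synthesis (0 of 19 called), 0.00 for the Ceacam and Ly6/uPAR family (0 of 7), 0.04 for MHC class II (0 of 8), 0.01 for MHC class I and the immunoproteasome (0 of 13), -0.10 for NF-κB feedback and targets (0 of 18) and 0.01 for amino acid stress genes under ATF4 (0 of 11). The acute-phase and mucosal defense list had 1 of 16 higher, Cfb, and 2 lower, Reg3g and Ltf, with a median of 0.03. Of these, Ltf had 77.7% of its UMIs in 1 cell and turned to 2.95 without the 5% of base cells with the most UMIs. Chemokines had 1 of 11 higher, Cxcl5, and 2 lower, Ccl5 and Ccl20, with a median of -0.12. Ccl20, which attracts lymphocytes and dendritic cells through Ccr6, stood at 10.4 CPM against 44.4 CPM in the Cxcl10/Cd14 state. Of 16 interferon-stimulated genes 2 were lower, Ifit1 and Rsad2 (median -0.08), and of 9 genes of IL-1 and IL-6 family signaling 1 was lower, Csf1 (median -0.19). Ifit1 stood at 7.85 CPM here, 36.0 CPM in the Cxcl10/Cd14 state and 3.62 and 1.77 CPM in the others.

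A list of 16 transitional genes was put together from genes that the study names for damage-associated transient progenitors or their metabolism, among them Ndrg1, AW112010, Cdkn1a and Slc16a3, and from further genes such as Areg. It draws on the study's own results and is no independent evidence of direction. Of its genes 0 were higher and 5 lower, which are those 5 (median -0.38). Cdkn1a, the cell cycle inhibitor p21, stood at 112 CPM against 143, 212 and 168 CPM in the other states. Areg, an EGF receptor ligand, stood at 63.0 CPM against 113, 86.5 and 117 CPM. Of 16 glycolysis and hypoxia genes 4 were lower, Pfkl, Bnip3, Ero1l and Egln3 (median -0.32), and each was highest in the Fgl1 state. Of 14 immediate early genes, which also respond to dissociation, 2 were lower, Egr1 and Atf3 (median -0.15), and 0 had a ratio above 1, with a median inside the middle 50% of all genes. Egr1 stood at 31.6 CPM against 43.4, 52.6 and 71.0 CPM. AT1 genes had 1 of 9 lower, Clic5 (median -0.33), antioxidant genes 0 of 16 called (median -0.25), airway genes 3 of 5 lower (median -1.66) and stromal genes 1 of 5 lower, Fn1 (median -0.09). Of the airway genes, 1 cell held 83.7% of the Bpifa1 UMIs, and Scgb3a1 turned to 1.21 without the 5% of base cells with the most UMIs. A Scgb3a1 UMI was in 14.2% of members and 10.4% of the other base cells. In the cell cycle list 1 gene, Tyms, had enough UMIs and was not called, in the macrophage list Cd68 (0.737) was not called, and 0 neutrophil genes had enough UMIs.

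Around Cxcl3 the genes of the chemokine cluster differed from each other. Cxcl5, which starts 26.7 kb upstream, and Pf4, 13.7 kb upstream, were higher in the state (1.80 and 1.74). Cxcl15, 8.4 kb downstream, had a ratio of 1.27, Cxcl1, at 105.1 kb, 1.19 (1.10 to 1.27), and Cxcl2, at 117.8 kb, 0.961 (0.828 to 1.11). Relative to control base cells Cxcl2 was 12.4-fold, Cxcl5 7.47-fold, Cxcl1 5.81-fold and Pf4 4.51-fold higher in the state, and Cxcl15 was at 0.855. Cxcl2 and Cxcl1 were thus above control without being set apart within the IL-1β base cells. Around Cd177 and Ceacam10 most flanking genes had under 100 UMIs, and the abundant ribosomal gene Rps19 had a ratio of 0.936.

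**Figure D5:**
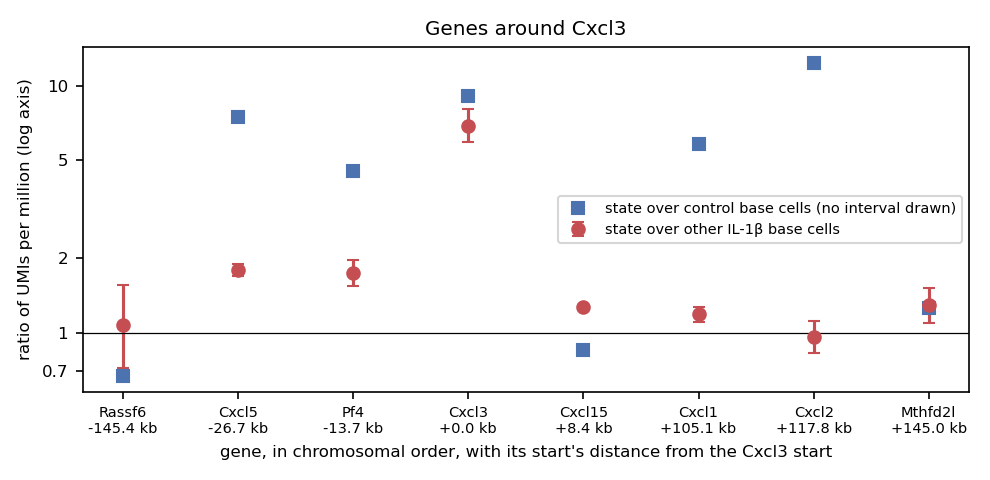
Ratio of the state over the other IL-1β base cells (circles, with exact 95% intervals) and over control base cells (squares) for the measured genes around Cxcl3, in chromosomal order on a log axis. Cxcl5 and Pf4 upstream lie at 1.80 and 1.74 over the other base cells, while Cxcl1 and Cxcl2 lie near 1 there but at 5.81 and 12.4 over control.

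Members differed by which score gene they held. Of the members, 140 had a Cd177 or Ceacam10 UMI and no Cxcl3 UMI, 55 had Cxcl3 alone, 97 had both and 38 none, at median depths of 11967, 12155, 15217 and 9962.5 UMIs. Cxcl5 stood at 329 CPM in the first group, 465 CPM in the Cxcl3-only cells, 705 CPM in cells with both and 46.8 CPM in cells with none. Lcn2 stood at 24002, 20844, 25868 and 14920 CPM in the same order, and Dmkn at 1167, 1027, 1207 and 529 CPM. Cells with none of the score genes had less Cxcl5, Lcn2 and Dmkn than the other base cells of the library, at 251, 18016 and 653 CPM. Cxcl3-only cells had more Cxcl5 (1.41, 1.23 to 1.63), Cxcl1 (1.40, 1.16 to 1.69) and Cxcl2 (2.23, 1.47 to 3.39) than cells with Cd177 or Ceacam10 alone, and less Lyz1 (0.705, 0.578 to 0.855), Il4i1 (0.751) and Sftpa1 (0.833). Depth moved with these groups, and its part in the differences was not tested.

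The score genes were also found outside the base. The 97 IL-1β epithelial cells with Sftpc under 1% of UMIs had 120 CPM of Cd177, 98.0 CPM of Ceacam10 and 80.7 CPM of Cxcl3. Cells in the top 15% of the Krt8 score had 30.9, 18.03 and 18.9 CPM, and cells with over 2 AT1 UMIs 3.36, 3.58 and 8.28 CPM. The other genes were also read in cells outside the base, split by UMIs of the score genes Cd177 and Ceacam10. Those cells come from the same library, so the values are a description and no independent support. Of the 730 epithelial cells outside the base, 104 had a Cd177 or Ceacam10 UMI (median depth 13795.5 UMIs) and 626 had none (10941.5 UMIs). Of the 25 genes highest in the state, 17 were also higher in those 104 cells, with an interval above 1, and 1 was lower, Smarcd3; over all 7784 genes measured there these shares were 8.65% and 19.5%. Dmkn had a ratio of 3.24 (2.97 to 3.53), Pf4 3.73, Il4i1 3.75, Lyz1 3.95, Sftpa1 2.10 and Cxcl5 1.67. Of the 15 lowest genes, 9 were lower there too, with Fxyd4 at 0.285, and Klk10, Ltf and Ccl5 were higher. Of the 104 cells, 31 were cells with Sftpc under 1% of UMIs, 49 were in the top 15% of the Krt8 score and 24 had over 2 AT1 UMIs, against 97, 292 and 341 of the 730, so the makeup of these cells differs and its part was not tested. In those populations, in the same order, Dmkn stood at 233, 474 and 80.5 CPM and Lyz1 at 365, 185 and 13.6 CPM. The ratios pool the populations.

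Against control AT2 base cells, 880 of 8451 genes were higher in the state (10.4%) and 833 lower (9.86%), around a median log2 ratio of 0.01. With surfactant, lysozyme, mitochondrial and ribosomal genes left out of the totals, 713 were higher and 1026 lower. The 10 highest were Neurl3, Pigr, Il4i1, Mmp3, Ly6i, Basp1, Orm1, Ly6d, Pglyrp1 and Il18rap. Neurl3, a ubiquitin ligase, stood at 30.9 CPM against 1 UMI in control, a ratio of 341 with an interval from 60.2 to 13576. Pigr, the receptor that carries polymeric immunoglobulins across epithelia, was 67.5-fold control (49.98 to 93.5), Ly6i, a Ly6 family member, 25.1-fold, Orm1, an acute-phase protein, 21.1-fold, and Pglyrp1, a peptidoglycan-binding protein, 14.8-fold. Mmp3, a matrix metalloprotease, was 29.2-fold, and non-epithelial cells of the same library had 9125 CPM of it against 299 CPM in the state. A UMI of it was in 97.0% of members. Dcn, the stromal marker with a like excess in non-epithelial cells, was 21.3-fold control (16.5 to 28.0). The part of stromal RNA in the Mmp3 level of the state was not tested. The ratios of these 10 genes over the other IL-1β base cells ran from 0.916 for Ly6d to 1.39 for Il4i1 (1.30 to 1.49), with Orm1 at 1.28 (1.13 to 1.45), and none reached 1.5.

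Among the 10 lowest against control were Bex2, Bex4, Cdca3, Rrm2, Mlana, Igfbp2, Scgb1a1, Cbr2 and Ube2c. Bex2 stood at 18.7 CPM against 900 CPM in control, and Cbr2, a carbonyl reductase, at 83.5 CPM against 874 CPM. Cdca3, Rrm2 and Ube2c are cell cycle genes, and all 10 genes of the cell cycle list that were measured were lower (median log2 ratio -3.75). Their control levels came from few cells, since a UMI of Cdca3, Rrm2 and Ube2c was found in 4.98%, 5.92% and 6.33% of control base cells. In the sterol and fatty acid list 14 of 19 were lower (median -1.05), with Scd1, a fatty acid desaturase, at 5157 CPM against 17919 CPM. The counts of the lists stand against 10.4% of all genes higher and 9.86% lower. Acute-phase and mucosal defense genes had 11 of 13 higher and 0 lower (median 2.40), chemokines 7 of 10 higher and 1 lower (1.16), NF-κB genes 9 of 15 higher and 0 lower (0.87), and Ceacam and Ly6/uPAR genes 6 of 7 higher (1.33), Ceacam1 among them at 33.2 against 12.1 CPM. Glycolysis and hypoxia genes had 9 of 15 higher (0.83), MHC class I 7 of 13 (0.78), MHC class II 4 of 8 (0.65), immediate early genes 5 of 13 with 1 lower (0.40), ATF4 genes 4 of 11 (0.22), interferon-stimulated genes 2 of 12 (0.28), transitional genes 5 of 13 with 1 lower (0.16), and signaling genes of the IL-1 and IL-6 families 1 of 6 (-0.13). AT2 genes had 4 of 17 higher, Sftpa1, Sftpd, Lyz2 and Chil1, and 3 lower, Abca3, a lipid transporter of lamellar bodies, Etv5 and Lpcat1 (median -0.30). AT1 genes had 2 of 11 higher and 6 lower (-0.73), antioxidant genes 4 of 15 higher and 2 lower, the metallothioneins Mt1 and Mt2 (-0.01), airway genes 1 of 3 higher and 1 lower (-0.36), and stromal genes 1 of 6 higher, Fn1, and 1 lower, Acta2 (-0.10). In the macrophage list Cd68 was 4.95-fold control. Several genes of the defense and chemokine lists were also abundant in IL-1β non-epithelial cells. Saa3, a serum amyloid A protein, stood at 3238 CPM in the state, 532 CPM in control base cells and 50310.5 CPM in those non-epithelial cells, and Ccl2, a monocyte chemoattractant, at 60.0, 24.2 and 1869 CPM. Lcn2 was lower in non-epithelial cells, at 8654 CPM, than in the state. Dcn was also above control in the state, and the part of stromal RNA in the list counts against control was not tested.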

How the data were processed

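The authors made the deposited counts with Cell Ranger on GRCm38 from 10x 3′ libraries, and the matrices hold whole UMI counts of 27998 gene IDs per barcode, not normalized. Scanpy 1.3.6 is named in the submitters' processing notes. The files still hold stromal cells and cells outside the study's cutoffs, and no doublet caller was run here (an alternative leaves out the 5% of base cells with the most UMIs). Gene IDs that share a symbol were summed.

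UMIs were summed per population and given per 1000000 (Python 3.11.15, scipy 1.17.1). State scores were the mean of ln(1 + UMIs per 10000). The text names the score genes, the 25 highest and 15 lowest genes against the other base cells and the 10 highest and 10 lowest against control by the interval limit nearest to 1 (at least 100 UMIs, without mitochondrial, ribosomal, predicted and rule genes), genes of 21 lists, flanking genes and the most correlated genes. Members, lists and comparisons were chosen with earlier results of these data known. The 6 genes higher and 28 lower than in each other state, and the examples within members, were chosen after their values were seen. Ratios were checked on simulated counts. Of the genes in the files, 27645 IDs are in GENCODE M21, from which positions were taken. Promoter sequences are from RefSeq. Cxcl11, Chi3l1 and Pclaf were in the lists but not found by symbol. Some genes that this rule names, and a gene of another state's score, are not reported here.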

Additional observations from a re-analysis of the deposited data

How the results depend on the processing

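The share of base cells in the state was 11.7% with a margin of at least 0.5 z (193 cells), 9.15% with UMIs of at least 2 of the 3 score genes (151 cells) and 17.7% with a UMI of at least 1, a setting chosen after seeing the data, and from 18.6 to 20.1% under the other 9 settings. Of genes higher than in the other base cells, the count of 45 became 69 with the mean of each cell's CPM, 82 with at least 30 UMIs and 3 at a ratio of 2. Of genes lower, the count of 215 became 343 with the margin, 389 with UMIs of at least 2 genes and 45 at a ratio of 2. Against control, a ratio of 2 gave 330 higher and 315 lower. Counts under all other settings, among them leaving out each gene's top cell or the 11 barcodes found in both libraries (4 in the state), both chosen after seeing the data, were within 1.5 times. Of 942 ratios of named genes under alternatives, 815 stayed inside their interval and 10 reversed. Phgr1 was at 0.851 without the 5% deepest cells, 0.400 and 0.398 with scores without Cd177 and without Cxcl3, and 0.801 without its top cell. Fbln2 was at 0.453 with thinned scores, 0.669 without Cd177, 0.466 with the margin and 0.712 without its top cell. Ltf and Scgb3a1 were at 2.95 and 1.21 without the deepest cells. Beyond the single cells named, causes were not tested. No paired analysis was possible because each condition has 1 library. Depth limits genes under 100 UMIs.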

Other observations

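Scored by the means and SDs of the control base cells themselves, 135 of 743 control base cells (18.2%) had the score of Cd177, Ceacam10 and Cxcl3 as their highest, and 78 of these had no UMI of the 3 genes. The second-highest score of the 330 members was Cxcl10/Cd14 in 126, Fgl1 in 106 and Retnla/Gstm1 in 98. Mitochondrial genes took 5.05% of UMIs in the state, 4.60% in the other base cells and 4.53% in control base cells.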
